A study of Mus musculus with 9 samples.

Results

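The genes described here encode the recombinase DMC1 and the proteins that load recombinases onto single-stranded DNA, or that help the loaded filament to invade a homologous duplex. The 9 genes were picked by name from a table of 24505 genes and were all found in it. Of these, 7 are regarded as specific to meiosis (Dmc1, Mnd1, Psmc3ip, Rad51ap2, Meiob, Spata22 and Hsf2bp), and 2 (Brca2 and Rad51ap1) also serve homologous recombination in dividing somatic cells. RNA was sequenced from EGFP-positive germ cells sorted from testes of Uchl1-eGfp mice, a C57BL/6 line outcrossed to CD-1, in which the transgene marks germ cells with green fluorescence. Pups in all 3 groups were fed bis-(dichloroacetyl)-diamine, an inhibitor of retinoic acid (RA) production, at 100 µg per g of body weight from postnatal day (P) 1, and were injected with 10 µl of RA at 10 µg per µl on P11 so that spermatogonia differentiated together. The first course of the inhibitor ended at P10 in the series' design text and at P11 in the sample records. Intermediate and type B spermatogonia (In/B) were collected at P17, and preleptotene spermatocytes (PL) at P19, the latter either after the inhibitor was stopped at the RA injection (RA-sufficient PL) or with daily inhibitor continued (RA-deficient PL). Each group had 3 libraries, and cells of at least 5 pups of a litter were pooled for a preparation. By the study's methods the In/B cells came from RA-sufficient testes. The In/B gate took cells bright in EGFP and the PL gate dim ones, so that cell type, age and gate cannot be told apart between In/B and PL.

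In meiosis, programmed double-strand breaks are resected to single-stranded tails that are first coated by replication protein A (RPA). BRCA2 carries recombinases onto the tails, and HSF2BP, which binds BRCA2 together with its partner BRME1, takes part in this step in spermatocytes. MEIOB and SPATA22 form a complex that binds single-stranded DNA alongside RPA, and MND1 and PSMC3IP (also called HOP2) form a heterodimer that stimulates strand invasion. RAD51AP1 stimulates strand invasion as well, and RAD51AP2 is its meiotic relative. Mutants in several of these genes make breaks in prophase of meiosis and fail to repair them. The preleptotene stage, in which the last round of DNA replication before the divisions takes place, precedes most break formation.

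The libraries held 12612959 to 27042274 counts, and 14769 to 15327 genes had a count in RA-deficient PL against 16758 to 18434 in the other libraries. The 2 germ cell markers summed to 1578 to 1798 CPM, a read count scaled to library size and composition, in In/B, 1371 to 1621 in RA-sufficient PL and 2509 to 2866 in RA-deficient PL, and 1 of them, Dazl, was called higher in the last than in In/B (1.09 on the log2 scale). The 6 genes of meiotic entry summed to 1806 to 2750.3 CPM in In/B, 5240.4 to 7110.4 in RA-sufficient PL and 6912 to 8282 in RA-deficient PL. Sertoli cell RNA was unevenly spread. The sum of 8 Sertoli markers was 71.6 to 372 CPM in In/B, 3101 to 4043 in RA-sufficient PL and 312 to 547 in RA-deficient PL, and 8 of the 8 were called higher in RA-sufficient PL than in In/B. The RA-deficient PL libraries differed among themselves. The 6 markers of differentiating spermatogonia summed to 1755 and 1714 CPM in replicates 1 and 2, beside 1439 to 1724 in In/B, and to 397 in replicate 3, beside 346 to 777 in RA-sufficient PL. By this sum the first 2 libraries were near the spermatogonia and the third near RA-sufficient PL. The single genes did not all follow the sum. Of the 6 log2 fold changes of RA-deficient PL against In/B, 3 were positive and 3 negative, with 1 called higher and 1 lower. In group means Dmrtb1 was at 80.1 CPM beside 325 in In/B and Dmrt1 at 352 beside 594. Stra8 was at 275 beside 123 and Sohlh2 at 167 beside 79.5. The 8 pachytene and spermatid markers summed to 6.84 and 9.35 CPM in replicates 1 and 2 and to 139 in replicate 3, with Hist1h1t and Tnp1 at 0 in all 3, and to 32.3 to 82.8 in In/B and 232 to 869 in RA-sufficient PL, where 4 of the 5 tested were called higher than in In/B. Among RA-sufficient PL libraries, replicate 1 had the highest sum of both lists. The 9 peritubular and stromal markers summed to 135 to 141 CPM in RA-deficient PL, 75.2 to 94.3 in In/B and 83.5 to 94.8 in RA-sufficient PL, and 3 of the 9 were called higher in RA-deficient PL than in In/B and 5 higher and 1 lower in RA-sufficient PL. Markers of Leydig cells summed to at most 38.6 CPM, and Hba-a1 and Hbb-b1 were at 0 throughout. The members are given by library below, and several results that rest on RA-deficient PL replicate 3, but not all, are given with and without it. The data are from bulk samples, so fewer cells of a type and less RNA per cell cannot be told apart.

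The first question was which of these genes differed between spermatogonia and cells entering meiosis with RA available. A gene was called when its absolute log2 fold change was above 1 and its adjusted p was below 0.05 (quasi-likelihood test of edgeR, adjusted by Benjamini-Hochberg over all genes tested). All 9 members passed the filter on low counts in each of the 3 comparisons. In RA-sufficient PL against In/B, 6 members rose and 0 fell, beside 26.1% of all 15001 genes called higher and 19.3% called lower. Those that rose were Dmc1, Brca2, Rad51ap2, Meiob, Spata22 and Hsf2bp, and those not called were Mnd1, Psmc3ip and Rad51ap1. The median log2 fold change was 2.84 over the 9 members and 0.04 over all genes tested. In RA-deficient PL against the same In/B libraries, 6 members rose and 0 fell, beside 11.4% of all 14877 genes called higher and 11.8% called lower, and the median was 2.80 beside 0.00 over all genes. They were again Dmc1, Brca2, Rad51ap2, Meiob, Spata22 and Hsf2bp. The 2 comparisons share the In/B libraries and are therefore not independent of each other. Beside the counts of 0 members called lower, DESeq2 also called 6 members in each comparison, all of them higher, and Rad51ap1 in RA-sufficient PL was the 1 member with a negative log2 fold change at an unadjusted p below 0.05.

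Dmc1, the meiosis-specific recombinase (chromosome 15, 79391930 to 79435529 in mm9), was already present in spermatogonia, at 58.7, 99.3 and 95.4 CPM in In/B replicates 1 to 3. Its level was 360.0, 632 and 747 CPM in RA-sufficient PL and 445, 451 and 671 CPM in RA-deficient PL. Every PL library was above every In/B library, and the PL groups overlapped each other. Dmc1 rose by 2.84 on the log2 scale in RA-sufficient PL (SE 0.29, adjusted p = 7.42e-05) and by 2.80 in RA-deficient PL (SE 0.24, adjusted p = 1.56e-04).

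Rad51ap2 (chromosome 12, 11462885 to 11469734), the meiotic relative of Rad51ap1, showed the largest log2 fold change of the 9 members in both comparisons. It was at 1.29, 1.93 and 2.03 CPM in In/B, which were 23, 51 and 36 counts. In RA-sufficient PL it was at 84.9, 184 and 177 CPM, and in RA-deficient PL at 96.5, 92.5 and 213 CPM. The In/B libraries lay far below both PL groups, and within PL replicate 1 with RA and replicates 1 and 2 without it were the lower libraries. The log2 fold change was 6.45 in RA-sufficient PL (SE 0.37, adjusted p = 1.10e-05) and 6.42 in RA-deficient PL (SE 0.43, adjusted p = 6.55e-05).

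Meiob and Spata22, whose products act as a complex, were the next in size. Meiob (chromosome 17, 24941327 to 24976732, under its older name 4930528F23Rik in the annotation) was at 3.19, 2.61 and 2.71 CPM in In/B and at 88.4, 179 and 182 CPM in RA-sufficient PL. In RA-deficient PL it was at 57.5, 49.7 and 238 CPM. Without RA, replicates 1 and 2 were below every RA-sufficient library and replicate 3 was above every one of them. Meiob rose by 5.78 on the log2 scale in RA-sufficient PL (SE 0.33, adjusted p = 1.10e-05) and by 5.51 in RA-deficient PL (SE 0.68, adjusted p = 7.14e-04), or by 4.41 without RA-deficient PL replicate 3 (adjusted p = 9.51e-06). Spata22 (chromosome 11, 73143243 to 73169415) was at 11.5, 11.8 and 13.1 CPM in In/B, 123, 234 and 247 in RA-sufficient PL and 159, 167 and 365 in RA-deficient PL. The PL groups overlapped each other and neither overlapped In/B. Spata22 rose by 4.11 (SE 0.27, adjusted p = 1.43e-05) and 4.41 (SE 0.36, adjusted p = 1.20e-04) respectively. Its exons share 961 bases with those of Olfr20 on the same strand, a gene with 591 counts over all 9 libraries, and how reads in the shared bases were assigned is not given in the sources used here.

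Brca2 and Hsf2bp, the loader and its binding partner, rose less steeply from higher starting levels. Brca2 (chromosome 5, 151325205 to 151372321) was at 273, 367 and 366 CPM in In/B, 778, 1519.7 and 1326 in RA-sufficient PL and 1222, 1168 and 1742 in RA-deficient PL. It rose by 1.90 on the log2 scale with RA (SE 0.24, adjusted p = 1.93e-04) and by 2.21 without (SE 0.19, adjusted p = 1.34e-04). Of the 2 general members it was the 1 that was called. Hsf2bp (chromosome 17, 32081714 to 32171453) was at 16.7, 20.5 and 21.8 CPM in In/B, 95.7, 166 and 176 in RA-sufficient PL and 152, 172 and 213 in RA-deficient PL. It rose by 2.95 (SE 0.24, adjusted p = 2.66e-05) and by 3.35 (SE 0.19, adjusted p = 3.85e-05). For both genes all PL libraries were above all In/B libraries, while the PL groups overlapped.

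Mnd1 and Psmc3ip, which encode the partners of the strand-invasion heterodimer, were the 2 meiosis-specific members not called in either comparison. Mnd1 (chromosome 3, 83891856 to 83959708) was at 4.75, 4.23 and 4.01 CPM in In/B and 3.68, 2.73 and 3.71 in RA-sufficient PL. In RA-deficient PL it was at 11.5, 5.63 and 3.72 CPM, and its counts over the 9 libraries ran from 45 to 287. Without RA, replicate 3 lay just above the RA-sufficient libraries and below the In/B libraries, whereas replicates 1 and 2 were above both groups. The log2 fold change was -0.31 with RA (SE 0.31, adjusted p = 0.411) and 0.84 without (SE 0.49, adjusted p = 0.223), and without RA-deficient PL replicate 3 the latter was 1.15 and was called (adjusted p = 0.0470). Psmc3ip (chromosome 11, 100953137 to 100956750) was at 28.2, 37.1 and 31.7 CPM in In/B, 35.1, 33.1 and 37.5 in RA-sufficient PL and 21.4, 19.8 and 36.5 in RA-deficient PL. The ranges of the 3 groups overlapped, with replicates 1 and 2 without RA the lowest of the 9 libraries. Its log2 fold change was 0.18 (SE 0.16, adjusted p = 0.351) and -0.15 (SE 0.27, adjusted p = 0.703), and its 95% interval of -0.19 to 0.55 in RA-sufficient PL held no doubling. Of its exon bases, 385 also belong to exons of Mlx on the opposite strand (2794 counts in all), and whether strand was used in counting is not given in the sources used here.

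Rad51ap1 (chromosome 6, 126873068 to 126889605), a stimulator of strand invasion outside meiosis too, was at 73.6, 98.9 and 89.8 CPM in In/B, 69.5, 41.2 and 48.3 in RA-sufficient PL and 80.0, 80.5 and 55.9 in RA-deficient PL. All RA-sufficient PL libraries were below all In/B libraries. Its log2 fold change of -0.67 with RA (SE 0.21, adjusted p = 0.0198) passed the adjusted p but not the fold threshold, and the value of -0.11 without RA (SE 0.19, adjusted p = 0.705) passed neither. Thus 5 of 7 meiosis-specific members and 1 of 2 general members rose in each comparison. The median log2 fold change of the 7 meiosis-specific members was 2.95 with RA and 3.35 without.

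**Figure D1:**
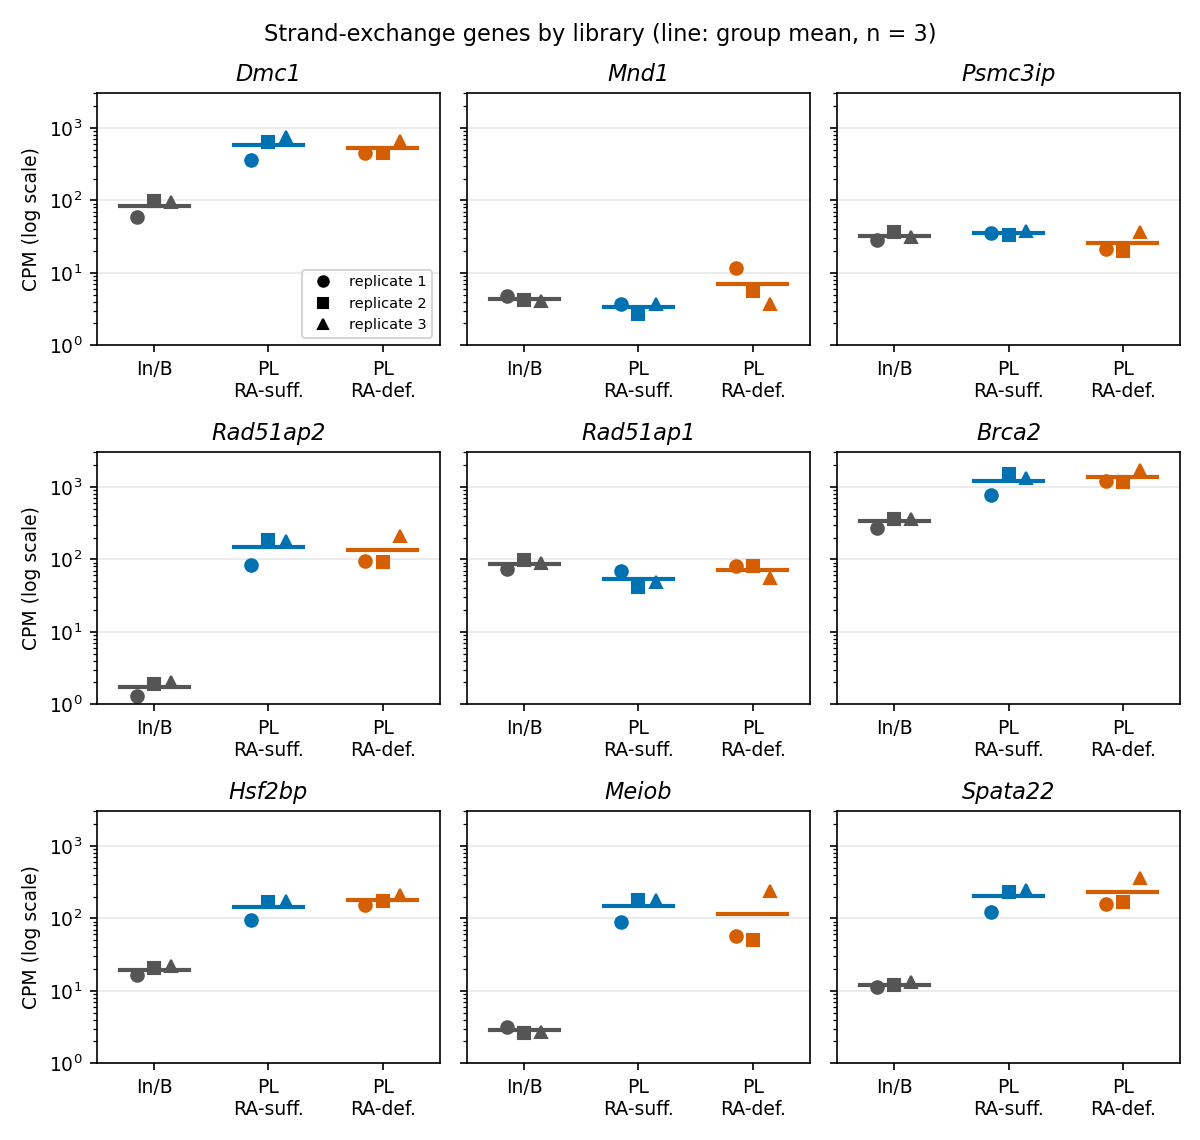
CPM of each of the 9 genes (log axis) in each library, with In/B in grey, RA-sufficient PL in blue, RA-deficient PL in orange, symbols for replicates 1 to 3 and a line at the mean of 3 libraries. For 6 genes every PL library lies above every In/B library, for Mnd1, Psmc3ip and Rad51ap1 it does not, and Meiob in RA-deficient PL is split between 57.5 and 49.7 CPM in replicates 1 and 2 and 238 CPM in replicate 3. The share of all genes whose libraries separate in this way was not computed.

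The sum of Sertoli markers was higher in RA-sufficient PL as well, and its part in these rises was not tested. In RA-deficient PL, where the Sertoli sum was 312 to 547 CPM against 71.6 to 372 in In/B and 1 of 8 Sertoli markers was called higher, the 6 members were called as well. Their log2 fold changes remained above 1 with an adjusted p below 0.05 in both comparisons when any 1 library was left out.

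To ask what the genes that moved together share in sequence, promoters were taken from RefSeq (GRCm38.p6, a later build than mm9) for the 250 bases before to the 50 after the annotated start. Of the 9 members, 8 had an entry, and Meiob had none. The motif GCGGGAA of the E2F factors, which are known for the control of S phase genes, was searched on both strands. It was found in 5 of the 8 promoters, those of Rad51ap2, Spata22, Hsf2bp, Brca2 and Rad51ap1, and in 4.60% of 32851 promoters of the same length. Of these 5, the first 4 rose in PL and Rad51ap1 was not called. The match began 12, 4, 50 and 168 bases upstream of the start in Rad51ap2, Spata22, Hsf2bp and Brca2, and 12 bases downstream of it in Rad51ap1. The promoters are rich in G and C, from 53.7% in Hsf2bp to 69.0% in Dmc1 against a median of 52.7% over all promoters, which was not taken into account in the 4.60%. The bases around each match, read along the gene's strand with the match in capitals, are shown because this motif was the one found in most of the members.
Rad51ap2, chr12:11456032-11456060, plus strand: gccggagcgagGCGGGAAtctccgacaga
Spata22, chr11:73329726-73329754, plus strand: ggttttcagagGCGGGAAgttccgcgtgg
Hsf2bp, chr17:32034541-32034569, minus strand: gcatcttaagaTTCCCGCgtttttgtgtg
Brca2, chr5:150522442-150522470, plus strand: tttaggccacaGCGGGAAacagacacaca
Rad51ap1, chr6:126939558-126939586, minus strand: tctggttttcgGCGGGAAttgaaaccgcc

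Dmc1 and Mnd1, of which the first rose and the second was not called, held none of the motifs searched. For the E2F factors only the letters GCGGGAA were searched, and other forms of their motif were not looked for in any promoter. The motif CNCCTCAG, reported for the meiotic transcription factors STRA8 and MEIOSIN, matched in Rad51ap1 alone of the 8, beginning 58 bases upstream of the start, and was in 7.94% of all promoters. The E-box CACGTG was in 0 of the 8 and in 7.15% of all promoters. The hexamer AGGTCA, bound by nuclear receptors including those for RA, was in 16.3% of all promoters and in Psmc3ip alone of the 8, where it matched at 235 bases upstream as AGGTCA and at 139 bases upstream on the opposite strand. A pair of such hexamers 5 bases apart was in 0.0213% of all promoters and in none of the 8. A match is a description of letters and not of binding, and no match says nothing of the factor. The 250 bases upstream of Dmc1, which rose and held no match, and of Psmc3ip, which was not called and held 2 hexamers, are given along the gene's strand, with the hexamers in capitals.
Dmc1, chr15:79605110-79605359, minus strand: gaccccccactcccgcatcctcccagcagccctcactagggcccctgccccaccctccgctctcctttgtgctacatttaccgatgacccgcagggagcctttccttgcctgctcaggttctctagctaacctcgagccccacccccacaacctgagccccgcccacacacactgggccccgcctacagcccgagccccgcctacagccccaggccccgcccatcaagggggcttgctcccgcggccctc
Psmc3ip, chr11:101095436-101095685, minus strand: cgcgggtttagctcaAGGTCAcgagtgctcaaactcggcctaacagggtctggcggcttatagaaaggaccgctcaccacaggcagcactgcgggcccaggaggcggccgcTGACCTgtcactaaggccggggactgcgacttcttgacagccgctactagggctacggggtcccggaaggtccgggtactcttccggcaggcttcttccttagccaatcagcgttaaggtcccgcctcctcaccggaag

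To compare levels between genes, CPM was divided by the kilobases of exon of each gene in GENCODE M1 (RPKM, an approximate scale because the annotation the authors counted on is not given in the sources used here). Dmc1 was the highest and Brca2 the second of the 9 members in each group. Their RPKM in In/B was 38.3 ± 10.1 and 31.3 ± 5.02 (SD, n = 3), which overlapped within 1 SD, and that of Dmc1 was 263 ± 90.0 in RA-sufficient PL and 237 ± 58.2 in RA-deficient PL against 113 ± 35.8 and 128 ± 29.6 for Brca2. Below them in In/B came Rad51ap1 and Psmc3ip at 22.0 ± 3.23 and 17.8 ± 2.45 RPKM, neighbours whose ranges of 1 SD around the mean overlapped. Hsf2bp at 6.61 ± 0.90, Mnd1 at 4.96 ± 0.43, Spata22 at 3.51 ± 0.24, Meiob at 1.67 ± 0.18 and Rad51ap2 at 0.551 ± 0.128 followed, and such ranges of neighbours did not overlap. The order changed in PL, where Meiob, Spata22, Hsf2bp and Rad51ap2 came directly after Brca2 with and without RA. In RA-sufficient PL their RPKM was 88.0 ± 31.3, 58.4 ± 19.9, 49.1 ± 14.7 and 46.8 ± 17.4, neighbours that overlapped within 1 SD, and in RA-deficient PL it was 67.5 ± 62.5, 66.8 ± 33.9, 60.2 ± 10.4 and 42.2 ± 21.6. Without RA-deficient PL replicate 3 the means of the latter group were 31.5, 47.3, 54.5 and 29.8 RPKM in the same order, so that the third place of Meiob rested on that library and Hsf2bp took it. Rad51ap2 thus went from the last of 9 in In/B to the sixth in both PL groups. Mnd1 was the last in both, at 3.86 ± 0.64 and 7.94 ± 4.63 RPKM, while its partner Psmc3ip was at 19.4 ± 1.20 and 14.2 ± 5.07.

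The next question was whether withholding RA changed these genes at the same stage. In RA-deficient against RA-sufficient PL, 0 of the 9 members were called in either direction, beside 4.47% of all 15352 genes called higher and 11% called lower. At an unadjusted p below 0.05 the number of members was also 0, and DESeq2 called 0. The median log2 fold change was -0.14 over the 7 meiosis-specific members, 0.19 over all 9 and -0.09 over all genes tested. The absence of a call does not show equal levels, and the 95% intervals say what sizes remain possible. For Dmc1 the log2 fold change was -0.14 (95% interval -0.76 to 0.48, adjusted p = 0.727), for Brca2 0.19 (-0.39 to 0.78), for Hsf2bp 0.30 (-0.23 to 0.83) and for Psmc3ip -0.45 (-1.09 to 0.19). A log2 change of 1 lay outside the interval for Dmc1, Brca2 and Hsf2bp in both directions. It lay inside the interval in at least 1 direction for Psmc3ip and for Rad51ap1 at 0.43 (-0.18 to 1.05), Spata22 at 0.20 (-0.67 to 1.07), Rad51ap2 at -0.14 (-1.06 to 0.77), Mnd1 at 1.03 (-0.17 to 2.24) and Meiob at -0.38 (-1.78 to 1.03), the last with the widest interval.

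Markers of other stages and cells moved with this comparison. Of the 8 Sertoli markers 8 were called lower without RA, and of the 6 markers of differentiating spermatogonia 4 were called higher, the median of the 6 being 2.05 on the log2 scale. In group means Kit was at 367 CPM without RA and 31.3 with it, and Dmrt1 at 352 and 73.9. Stra8 differed less, at 275 and 230, and Dmrtb1 was lower without RA, at 80.1 and 104. The means hide a split, as the 6 summed to 1755 and 1714 CPM in RA-deficient PL replicates 1 and 2 and to 397 in replicate 3. The part of either list in the values of the members was not tested. The comparison depended on RA-deficient PL replicate 3. Its CPM was 4.44 times the mean of replicates 1 and 2 for Meiob, 2.26 times for Rad51ap2 and 2.24 times for Spata22. The ratio was 1.77 for Psmc3ip, 1.46 for Brca2 and 1.31 for Hsf2bp, with Dmc1 between Psmc3ip and Brca2. It was below 1 for Rad51ap1 at 0.696 and Mnd1 at 0.435. The 5 meiosis-specific members that rose from In/B to PL were all higher in this library than in the other 2, and the part of its different marker sums in this was not tested. Without it, which leaves replicates 1 and 2 with their sums of differentiating spermatogonia markers near those of In/B, 2 members were called: Meiob fell by 1.48 on the log2 scale in RA-deficient PL (adjusted p = 0.00800) and Mnd1 rose by 1.35 (adjusted p = 0.0409). The share of all genes called in that fit was not computed, so this count has no reference. Psmc3ip was then at -0.77 (adjusted p = 0.0149) and Dmc1 at -0.36 (adjusted p = 0.323). Meiob and Mnd1 thus moved in opposite directions between replicates 1 and 2 without RA and the RA-sufficient libraries, and Spata22, the partner of Meiob, was at -0.30 (adjusted p = 0.423).

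**Figure D2:**
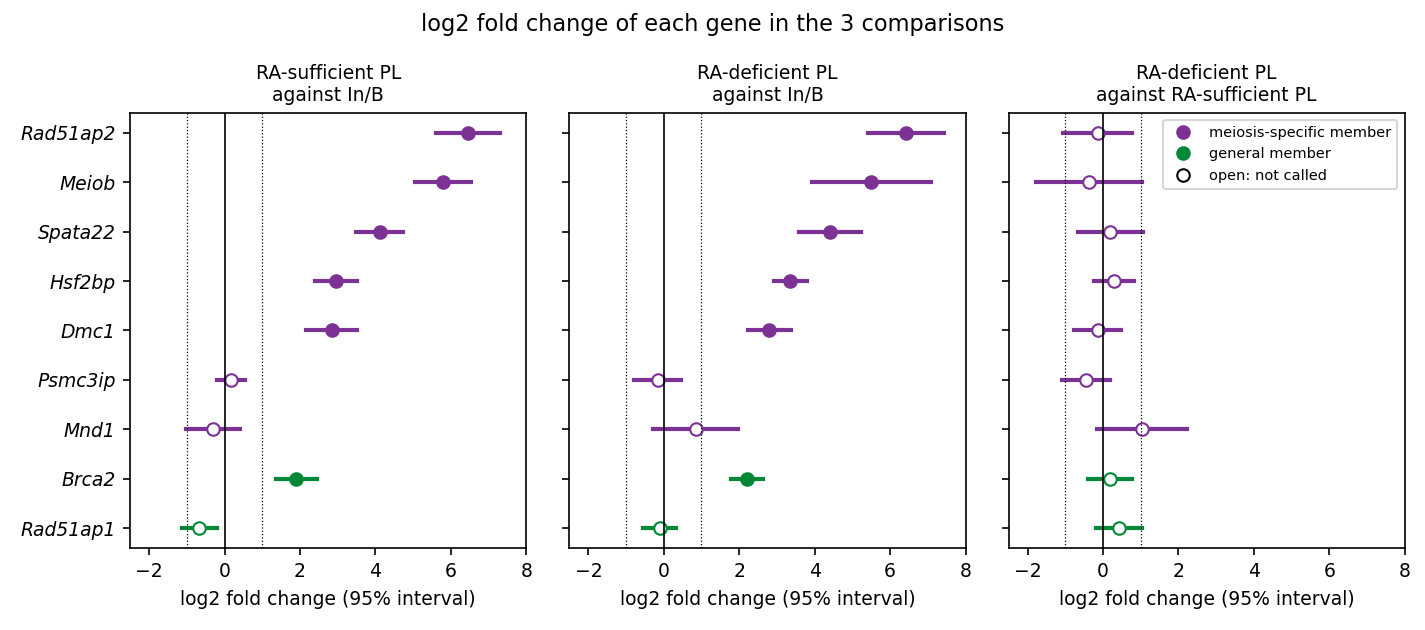
log2 fold change (point) with its 95% interval (line) of the 9 members in the 3 comparisons, with meiosis-specific members in purple, general members in green and filled points for genes called. In the first 2 panels the same 6 members are filled, from 1.90 for Brca2 to 6.45 for Rad51ap2 in RA-sufficient PL, and in the third none is, with the widest intervals at Meiob and Mnd1.

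The wider pathway was described with 39 other homologous recombination genes, all of which were tested. In RA-sufficient PL against In/B, 4 rose and 11 fell, the median log2 fold change being -0.30, and in RA-deficient PL 5 rose and 6 fell, the median being -0.05. With RA 10.3% of the list thus rose and 28.2% fell, beside 26.1% called higher and 19.3% called lower of all genes tested. Without RA the shares were 12.8% and 15.4% beside 11.4% and 11.8%, close to those of all genes. Scaling by library size alone, which shifted the median of all genes by -0.32 in the latter comparison, gave 3 higher and 11 lower there, without Rad51b and Recql5 among those higher. Mcmdc2, a helicase-like protein that supports strand invasion in meiosis, rose by 3.90 with RA and by 3.10 without. Brme1, the partner of Hsf2bp, rose by 3.03 and 2.60. These were the 2 largest rises of the 39 in both comparisons, and both genes encode meiotic proteins.

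Among 7 recombinase paralogs and their partners, Xrcc2 fell by 1.22 on the log2 scale with RA and by 1.19 without, and Rad51b rose by 1.30 without RA and was at 0.89 with it (adjusted p = 0.0199), under the fold threshold. Of 11 mediators and remodellers, Rad54l, a motor protein that acts on recombinase filaments, fell by 2.03 with RA and by 1.58 without. Rad54b, its relative, fell by 1.73 with RA, and Rad52 by 1.31, and neither was called without RA. Of the 3 RPA subunit genes, 2 fell in both comparisons, Rpa1 by 1.10 and 1.15 and Rpa2 by 1.92 and 1.08, and Rpa3 was at -0.30 and -0.73 and was not called. For end resection, the nuclease gene Dna2 fell by 2.30 and 1.36 and Exo1 by 1.22 with RA, and none of the 6 was called higher. Rbbp8, the highest of the 6 with RA, was at 0.41 (adjusted p = 0.0304), under the fold threshold. Its mean CPM without RA was 1.46 times that of In/B. Among 12 antagonists of strand exchange and dissolution factors, the helicase genes Brip1 (1.04 and 1.99) and Recql5 (1.35 and 1.27) rose in both, Parpbp fell by 1.38 and 1.42 in both, and Rmi2 fell by 1.29 and Rtel1 by 1.06 with RA. The list thus held both directions. Of the 39, 24 were not called with RA and 28 without (61.5% and 71.8%), beside 54.6% and 76.8% of all genes tested.

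In RA-deficient against RA-sufficient PL, 0 of the 39 were called, beside 4.47% of all genes called higher and 11% called lower, 11 had an unadjusted p below 0.05, and DESeq2 called 0. For 6 of them the adjusted p was below 0.05 with a log2 fold change under 1, all with higher values without RA. The share of all genes under either p threshold, without the fold threshold, was not computed. Without RA-deficient PL replicate 3, 2 were called, Mcmdc2 at -1.50 (adjusted p = 0.00849) and Dna2 at 1.06 (adjusted p = 0.0101). For that fit the share of all genes called was not computed.

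**Figure D3:**
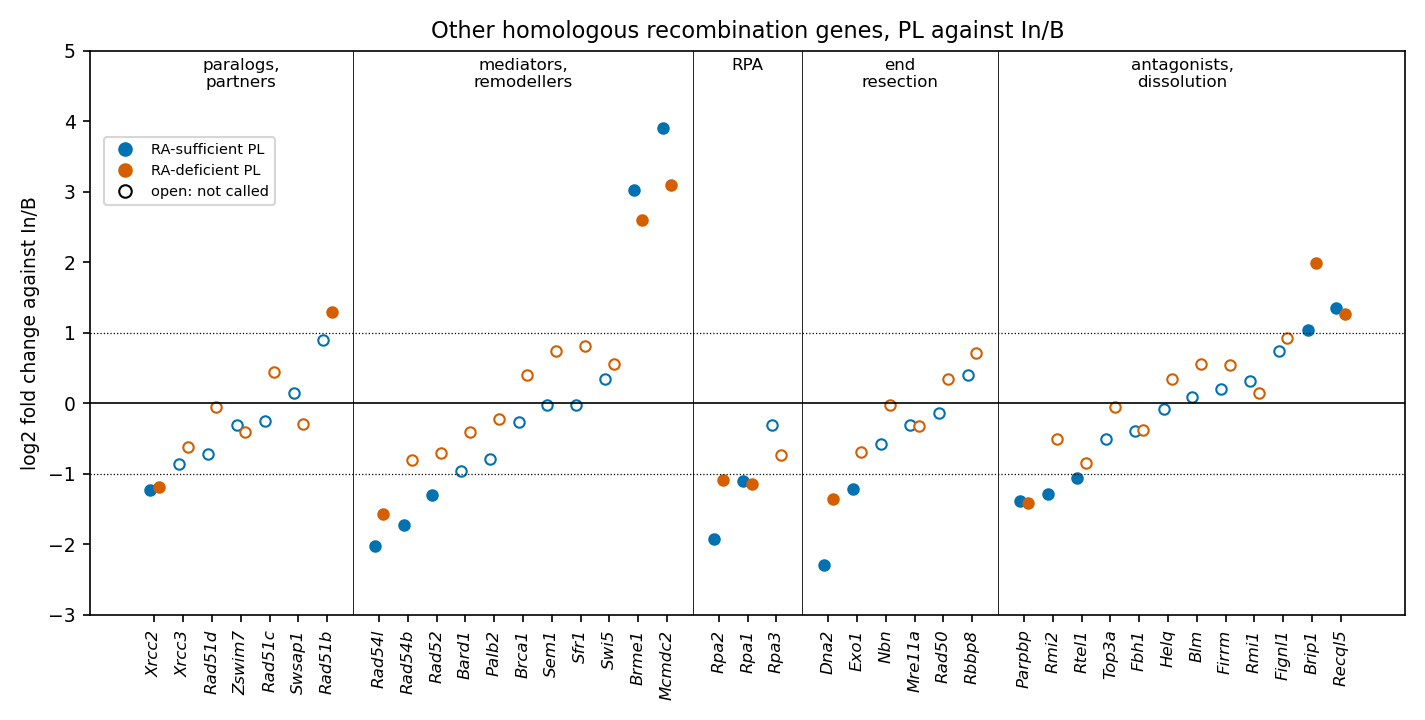
log2 fold change against In/B of the 39 other homologous recombination genes in RA-sufficient (blue) and RA-deficient (orange) PL, in 5 groups by role and ordered within each by the RA-sufficient value, with filled points for genes called and dotted lines at -1 and 1. Mcmdc2 and Brme1 stand above the rest at 3.90 and 3.03 with RA, and Dna2 is lowest at -2.30.

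As a set beside the general members, 16 DNA replication genes were examined, since Brca2 and Rad51ap1 are known as genes of the S phase in dividing cells. In RA-sufficient PL 7 fell and 1 rose, and in RA-deficient PL 4 fell and 3 rose, or 7 fell and 1 rose there with scaling by library size alone. As shares of the 16, 43.8% fell and 6.25% rose with RA and 25% fell and 18.8% rose without, beside 19.3% and 26.1% of all genes with RA and 11.8% and 11.4% without. The genes named here were chosen after their values were seen. Chaf1b, a chromatin assembly factor subunit, rose in both by 1.02 and 1.21, and Mcm5 (1.46) and Rrm2 (1.30) rose without RA. Cdt1, which licenses origins, fell by 3.12 with RA and by 1.36 without, and Tyms, Mcm2 and Cdc6 fell in both as well. The RA-deficient PL libraries were split for these genes. In replicates 1 to 3 Mcm2 was at 227, 210 and 65.0 CPM, Cdt1 at 31.1, 38.3 and 11.3, and Tyms at 14.3, 14.1 and 4.07. Between the PL groups Rrm2, a subunit of ribonucleotide reductase, was the 1 gene called, at 1.58 (adjusted p = 0.00179), beside 4.47% of all genes called higher. More of the 16 were called there without RA-deficient PL replicate 3, as given in the last section. With all libraries the median of the 16 was 0.83 beside -0.09 over all genes. Rad51ap1 went the way of most of the list with RA, at -0.67, and Brca2 did not.

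The genes whose profile over the 9 libraries was closest to 4 of the members were found by the root mean square difference of log2(CPM + 0.5), centred on each gene's mean, among 9697 other genes of at least 10 CPM on average. This is a description over 9 libraries that share their group structure. Closest to Dmc1 were Primpol, a primase and polymerase (difference 0.129), Terb2, which ties meiotic telomeres to the nuclear envelope (0.161), and Ankzf1 (0.164). Of the other members, Hsf2bp was nearest to Dmc1, at rank 26 (0.265), followed by Brca2 at rank 111 (0.412). Closest to Rad51ap2 were Fbxo47, an F-box protein gene (0.447), Pbx3, a homeodomain factor gene (0.501), and the member Meiob (0.547). Brca2 was closest to Epg5 (0.161), Gm15800 (0.163) and Cep290 (0.171). Rad51ap1 was closest to D10Jhu81e (0.119), Gnai3 (0.121) and Eif4g3 (0.122), none of which is known as a recombination gene.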

How the data were processed

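RNA from sorted EGFP-positive germ cells was made into TruSeq Stranded mRNA libraries and sequenced single-end. The authors trimmed the reads with cutadapt 1.9, aligned them to mm9 with STAR 2.5.2b and deposited raw read counts per gene from featureCounts, whose annotation and strand setting are not given in the sources used here. The 9 libraries (3 per group, 24505 genes) were grouped by their labels. Counts of each pair of groups were filtered (filterByExpr), scaled by TMM and tested with edgeR 4.0.16 (quasi-likelihood, Benjamini-Hochberg over all genes tested, R 4.3.3). Called genes had an adjusted p below 0.05 and a log2 fold change beyond 1 in either direction. CPM was scaled by TMM over all 9 libraries, and RPKM used the exon lengths of GENCODE M1 on mm9. The scripts were tested on simulated counts. P-values measure the spread between these libraries, which may be technical in part.

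The 9 members and all gene lists were chosen with earlier results of these data known. Named genes were the members, every other recombination gene called in a comparison or extreme in its sublist, and the 3 nearest patterns of 4 members. One gene of the planned lists, and the result that needed it, are not reported here. Alternatives were RLE scaling, library size alone, no count filter, a mean of at least 50 counts, 1 fit of all 9 libraries, a replicate block, DESeq2 1.42.0, a test against a fold change of 2, other adjusted p thresholds and leaving out each library.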

Additional observations from a re-analysis of the deposited data

Results flagged for a closer look

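For 6 of the 39 other recombination genes the direct test between the PL groups gave an adjusted p below 0.05 (edgeR's quasi-likelihood test) with a log2 difference under 1, so that none was called, and all 6 were higher without RA. How many of all genes passed this adjusted p alone was not computed, so the 6 cannot be set against a general share. Rad54b, a DNA translocase, differed by 0.80 (adjusted p = 0.0304) and Rad51c, a recombinase paralog, by 0.59 (adjusted p = 0.0441). Sfr1, a partner of the recombinases, differed by 0.72 (adjusted p = 0.00448). Brca1 differed by 0.56 (adjusted p = 0.0443), Sem1, which encodes a small partner of BRCA2, by 0.65 (adjusted p = 0.0269), and the helicase gene Brip1 by 0.83 (adjusted p = 0.00798). Among the 9 members 0 reached an adjusted p below 0.05 in this comparison.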

How the results depend on the processing

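In both comparisons with In/B the count of 6 members called was kept with 6 to 6 (RA-sufficient PL) and 6 to 7 (RA-deficient PL) when each library was left out, and between the PL groups it ran from 0 to 2, the 2 coming without RA-deficient PL replicate 3. For the 39 other recombination genes the leave-one-out counts were 14 to 16, 9 to 12 and 0 to 2, and for the 16 replication genes 7 to 8, 5 to 7 and 1 to 5, in RA-sufficient PL against In/B, RA-deficient PL against In/B and between the PL groups in turn. The 5 came without RA-deficient PL replicate 3, and without RA-sufficient PL replicate 3 the count was 3. Shares of all genes called were computed for the main fits alone, so counts under other settings have no such reference. A test against a fold change of 2 called 7 and 3 recombination genes against In/B in place of 15 and 11, and 5 and 1 replication genes in place of 8 and 7. An adjusted p below 0.05 alone called 24, 23 and 6 recombination genes, and 12 and 8 replication genes in RA-deficient PL against In/B and between the PL groups. For the last, DESeq2 and the fit of all 9 libraries gave 3 each in place of 1.

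The direction of a member reversed in these cases, none of them called. Rad51ap1 in RA-deficient PL against In/B ran from -0.22 to 0.050, the latter without RA-deficient PL replicate 3. Between the PL groups the values ran from -0.38 to 0.052 for Dmc1, -0.029 to 0.38 for Brca2, -0.65 to 0.069 for Rad51ap2 and -0.30 to 0.41 for Spata22. The cause was not tested.

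Deviations from the group mean of libraries with the same number had correlations from -0.27 to 0.13, and the main fits did not pair them. With 3 libraries per group this check cannot exclude that libraries of the same number are related. With the replicate block 6, 6 and 0 members, 15, 11 and 0 recombination genes and 7, 7 and 1 replication genes were called. Library size alone moved the median of all genes by -0.32 in RA-deficient PL against In/B and by -0.18 between the PL groups. The lowest counts of a member in a library were 23 to 51 for Rad51ap2 and 48 to 69 for Meiob in In/B and 45 to 84 for Mnd1 in RA-sufficient PL, which limits the precision of these values.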
